A study of Homo sapiens with 6 samples.

Results

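The transcripts described here encode 34 enzymes that carry glucose carbon through glycolysis, lactate and pyruvate metabolism, the pentose phosphate pathway and glycogen synthesis. They were listed by symbol, and each was found once or, where several rows bore the symbol, taken from its most abundant row among the 74852 rows of the gene table; all 34 passed the filter on low values that left 18717 genes for testing. They were measured in MDA-MB-231, an established cell line derived from a triple-negative breast cancer. The study's methods name RPMI with serum as its medium. The cells received by lipofection, in 2 rounds, either a control siRNA pool with no target (si-CTRL, 3 libraries) or a pool against NEK2 (si-NEK2, 3 libraries), and were collected 24 h after the second round according to the sample records (the study's methods give a later time). NEK2 is a mitotic kinase, and the comparison asks how its depletion alters the transcriptome of these cells. All 6 libraries come from 1 line, so they do not represent other tumours.

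Glycolysis splits glucose into pyruvate, with ATP and NADH as products. Lactate dehydrogenase then regenerates the NAD+ that the pathway needs, whereas pyruvate dehydrogenase passes the carbon to mitochondria and is switched off by the pyruvate dehydrogenase kinases. The pentose phosphate pathway branches off at glucose 6-phosphate and yields NADPH and ribose, and phosphoglucomutase leads toward glycogen and sugar nucleotides. Tumour cells are known for high glucose uptake and lactate release in the presence of oxygen.

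NEK2 mRNA in the libraries labelled si-NEK2 was at 10.0% of the si-CTRL mean, and the libraries held between 52625492 and 87454509 reads on genes. Library si-CTRL 1 stood apart from the other control libraries. For the 34 enzymes its level was between 0.656 (RPIA) and 1.31 (PGD) times the mean of si-CTRL 2 and 3, with 18 enzymes more than 10% away, whereas si-CTRL 2 and 3 differed by more than 10% for 1 enzyme. The sum of normalized counts was also higher in si-NEK2 (71439027 to 71995295) than in si-CTRL (65012672 to 65933374), so that scaling all libraries to the same total moved the median log2 fold change of all genes from 0.012 to -0.11. Counts of calls are given below also without si-CTRL 1 and with equal totals where either moves them. The line's mesenchymal markers were abundant (the summed level of 8 genes, VIM, ZEB1 and AXL among them, was 421809 to 511733 normalized counts in si-CTRL and 413276 to 437132 in si-NEK2), but they moved singly: 4 of the 8 were called lower, CDH11 (at 0.426 times the si-CTRL mean), ZEB1 (0.563), CD44 (0.582) and MSN (0.708), and CAV1 was called higher (1.61). Of 5 epithelial markers, 4 had means under 10, and the summed level of the 5 was 102 to 122 in si-CTRL and 65.1 to 112 in si-NEK2. The 1 that was tested, CLDN4, was called lower (log2 fold change -0.74, limma adjusted p = 0.00893). It averaged 99.6 normalized counts in si-CTRL and 59.7 in si-NEK2. The summed level of 6 blood and endothelial markers was 42.5 to 44.7 in si-CTRL and 35.2 to 54.0 in si-NEK2, with CD3E at no more than 3 reads in every library. The summed level of 7 luminal and receptor markers, mostly from KRT8 and KRT18, was 45300.2 to 47976 in si-CTRL and 51537 to 55160.3 in si-NEK2; FOXA1 (2.24 times the si-CTRL mean), ERBB2 (1.42) and KRT8 (1.29) were called higher, and PGR was at no more than 3 reads in every library. The part of these differences in the results on the enzymes was not tested.

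After NEK2 depletion 14 of the 34 enzymes rose, 3 fell and 17 did not pass the test (an adjusted p of at most 0.05 with limma). Of all genes tested, 21.8% were called higher and 21.3% lower. Those that rose were led by aldolase ALDOC, lactate dehydrogenase LDHA, transketolase TKT and the phosphofructokinase-2 PFKFB2, and the 14 log2 fold changes lay between 0.19 and 0.90. The 3 that fell were hexokinase HK2, phosphoglucomutase PGM2 and phosphofructokinase PFKP, with log2 fold changes between -0.74 and -0.38. The median log2 fold change of the 34 was 0.18, against 0.012 for all genes tested and 0.083 for the 10632 genes whose mean was at least that of the least abundant enzyme. Among those 10632 genes 31.2% were called higher and 21.1% lower. With the thresholds used in the study, an unadjusted p no higher than 0.05 and a 1.5-fold change or more, ALDOC was the 1 enzyme past them upward and HK2 the 1 downward, whereas 8.23% and 14.3% of all genes tested passed in these directions. The groups did not overlap for 21 enzymes, 15 higher and 6 lower in si-NEK2, and the same held for 55% of all genes tested.

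These counts moved with the choices named above. Without si-CTRL 1, 15 enzymes were called higher and 4 lower, beside 26.8% and 23.2% of all genes tested. With equal totals 8 were called higher and 6 lower, beside 13.8% and 28.1% of all genes tested. The calls of 9 enzymes held under all 17 alternative settings, those of ALDOC, LDHA, TKT, PFKFB2, ALDOA, GPI and GYS1 upward and of HK2 and PGM2 downward. Together the 34 enzymes took 1.71% ± 0.041 (SD, n = 3) of the normalized counts in si-CTRL and 1.82% ± 0.031 in si-NEK2, a difference in which the groups did not overlap (exact permutation test, two-sided, p = 0.1, the smallest that 3 against 3 libraries allow). In si-CTRL, PKM took 0.445% and GAPDH 0.418%. Without both, the share was 0.850% ± 0.028 (SD, n = 3) in si-CTRL and 0.900% ± 0.015 in si-NEK2. It was near level for hexose to triose phosphate (0.243% and 0.244%). Fructose 2,6-bisphosphate, oxidative pentose phosphate and glycogen synthesis enzymes took less in si-NEK2, and the other roles more. In bulk RNA fewer cells with a transcript and less transcript per cell cannot be told apart. Values after ± are the SD of 3 libraries below unless marked SE. The plot of values by library shows the 34 enzymes side by side.

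**Figure D1:**
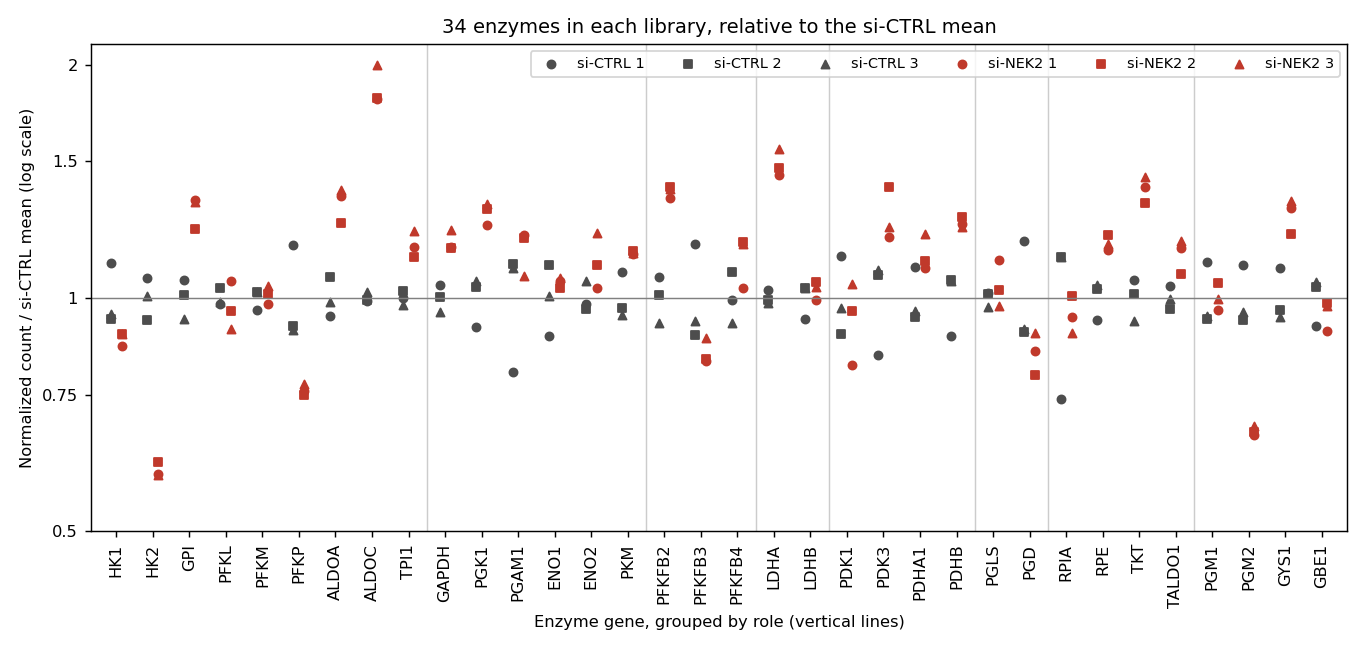
Normalized count of each of the 34 enzymes in each library, divided by the mean of the 3 si-CTRL libraries, on a log scale; grey symbols are si-CTRL, red symbols si-NEK2, and vertical lines part the enzymes by role. ALDOC and LDHA stand highest in si-NEK2 and HK2 and PGM2 lowest, and the grey circles (si-CTRL 1) often lie away from the other grey symbols.

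Shown first are promoters of the largest risers and fallers whose calls held in every setting. They were chosen because all of those shown hold the same hexamer, which was noticed after the search. The rises of TKT, GPI and GYS1 also held in every setting, but none of their listed starts has this hexamer. TKT was the next largest riser after LDHA. ALDOC and LDHA rose, HK2 and PGM2 fell. LDHA and HK2 have 2 listed starts each, and the start with more matches is shown. Each line gives 300 bases of GRCh38.p14 from RefSeq, 250 before and 50 after an annotated start, 5' to 3' on the gene's strand. Capitals mark the letters ACGTG, the core of hypoxia response elements, read on both strands (CACGT on the other), and the E-box CACGTG, which MYC and related factors can bind and which holds ACGTG on both strands.
ALDOC, chr17:28576846-28577145, minus strand: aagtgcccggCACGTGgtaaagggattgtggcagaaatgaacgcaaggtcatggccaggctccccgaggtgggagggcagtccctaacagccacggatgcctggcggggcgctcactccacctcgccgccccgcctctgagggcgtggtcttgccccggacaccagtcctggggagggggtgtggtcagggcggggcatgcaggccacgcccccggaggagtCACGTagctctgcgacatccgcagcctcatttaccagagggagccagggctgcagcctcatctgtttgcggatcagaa
LDHA, chr11:18394313-18394612, plus strand: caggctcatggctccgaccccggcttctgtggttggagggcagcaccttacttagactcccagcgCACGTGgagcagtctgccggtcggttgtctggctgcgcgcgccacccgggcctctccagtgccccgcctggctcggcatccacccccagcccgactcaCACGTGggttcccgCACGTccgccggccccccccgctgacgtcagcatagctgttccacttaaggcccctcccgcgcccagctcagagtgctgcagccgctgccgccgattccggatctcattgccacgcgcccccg
HK2, chr2:74834920-74835219, plus strand: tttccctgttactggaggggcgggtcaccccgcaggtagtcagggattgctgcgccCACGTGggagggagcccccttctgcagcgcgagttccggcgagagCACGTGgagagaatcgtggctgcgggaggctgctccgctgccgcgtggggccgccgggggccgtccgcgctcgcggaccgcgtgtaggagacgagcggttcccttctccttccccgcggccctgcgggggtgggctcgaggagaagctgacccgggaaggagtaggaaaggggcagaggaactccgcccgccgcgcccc
PGM2, chr4:37826436-37826735, plus strand: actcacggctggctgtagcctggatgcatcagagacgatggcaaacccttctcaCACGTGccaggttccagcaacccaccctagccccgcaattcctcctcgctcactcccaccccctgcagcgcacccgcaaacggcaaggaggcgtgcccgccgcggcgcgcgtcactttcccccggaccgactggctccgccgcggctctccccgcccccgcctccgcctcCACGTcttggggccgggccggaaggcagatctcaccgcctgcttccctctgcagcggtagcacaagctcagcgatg

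Promoters were listed for 33 of the 34 enzymes, with 57 starts in all, and none for PFKFB2. CACGTG was found for 8 enzymes (24.2% of 33), against 8.77% of all 27305 genes in the table. By start, it was found in 8 of 57 (14.0%), against 7.26% of all 35116 starts. ACGTG was found for 19 enzymes (57.6%) against 24.9% of all genes, and in 23 starts (40.4%) against 21.4% of all starts. The letters CACGTG occurred in 5 of 13 enzymes that rose (ALDOC, LDHA, ALDOA, GAPDH and PDHB), 2 of 3 that fell (HK2 and PGM2) and 1 of 17 that did not pass the test (PFKFB3). ACGTG occurred in 9 of 13, 3 of 3 and 7 of 17. Enzymes with more listed starts had more chances to match, and a match describes letters, not binding. The shares of all genes and starts take in genes whether or not these cells express them, whereas all 34 enzymes passed the filter on low values. A comparison with expressed genes alone was not made. In the sequences above LDHA and HK2 hold the hexamer at 2 places each, whereas ALDOC and PGM2 hold it once.

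The counts by role, here and below, stand beside 21.8% of all genes tested called higher and 21.3% called lower. Among genes at least as abundant as the least abundant enzyme these shares were 31.2% and 21.1%. With equal totals the shares of all genes tested were 13.8% and 28.1%. Of the enzymes that take hexose to triose phosphate, 4 of 9 rose, 2 fell and 3 did not pass the test. With equal totals 3 were called higher and 3 lower. Hexokinase, which traps glucose in the cell as glucose 6-phosphate, was represented by HK1 and HK2. HK2 (chr2:75059782-75120479 in hg19), the inducible form often raised in tumours, measured 6203, 5469 and 5870.3 normalized counts in si-CTRL 1 to 3 and 3459.9, 3587 and 3453 in si-NEK2 1 to 3. Every si-NEK2 library lay below every si-CTRL library, at 0.599 times the control mean (log2 fold change -0.74 ± 0.069 (SE), limma adjusted p = 8.04e-05). A row with no symbol that overlaps 1745 bases of the HK2 interval, at 461 normalized counts on average, also fell (log2 fold change -1.47, limma adjusted p = 0.000295). HK1, the housekeeping form, averaged 36206 ± 3389 in si-CTRL and 32109 ± 626 in si-NEK2 (SD, n = 3). The HK1 groups did not overlap, but the difference did not pass the test (log2 fold change -0.17 ± 0.076 (SE), limma adjusted p = 0.102); with equal totals it did (log2 fold change -0.30, limma adjusted p = 0.0116). Per kilobase of transcript, HK2 made up 9.18% ± 0.403 in si-CTRL and 6.37% ± 0.127 in si-NEK2 of the sum of HK1 and HK2.

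Phosphofructokinase 1, the committed step of glycolysis, has the subunits PFKL, PFKM and PFKP. PFKP, the platelet form, measured 8663, 6819 and 6736 normalized counts in si-CTRL 1 to 3 and 5620.4, 5553 and 5725 in si-NEK2 1 to 3. It fell (log2 fold change -0.38 ± 0.10 (SE), limma adjusted p = 0.0123), and si-CTRL 1 lay well above both other controls; without that library the log2 fold change was -0.27 (limma adjusted p = 0.000945). Its interval shares 3850 bases with PITRM1 on the opposite strand, 1.75 times as abundant (log2 fold change -0.11, limma adjusted p = 0.451). For the liver form PFKL the log2 fold change was -0.04 (95% interval -0.20 to 0.12) and for the muscle form PFKM 0.014 (95% interval -0.12 to 0.15), and neither passed the test. Both intervals leave out a fold change of 1.5. PFKP gave 40.7% ± 4.05 in si-CTRL and 34.6% ± 0.557 in si-NEK2 of the summed level per kilobase of the 3 subunits.

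Of the aldolases, which split fructose 1,6-bisphosphate, ALDOC (chr17:26900134-26904191 in hg19), the form named for brain, measured 906, 909 and 932 normalized counts in si-CTRL 1 to 3 and 1654, 1660.2 and 1832 in si-NEK2 1 to 3. The control libraries were nearly equal, and every si-NEK2 library was well above them, 1.87-fold on average (log2 fold change 0.90 ± 0.076 (SE), limma adjusted p = 5.11e-05), the largest rise among the 34. ALDOA, the main form, measured 24753, 27731 and 25806 normalized counts in si-CTRL 1 to 3 and 35288, 32585 and 35907 in si-NEK2 1 to 3. It rose as well, 1.33-fold (log2 fold change 0.41 ± 0.07 (SE), limma adjusted p = 0.00175), with no overlap. ALDOC remained a small part of the pair, 2.77% ± 0.158 in si-CTRL and 3.86% ± 0.178 in si-NEK2 of the summed level per kilobase. The whole listed ALDOC interval, 4058 bases, lies within that of SPAG5 on the same strand, a mitotic spindle gene 12.6 times as abundant, whose log2 fold change was 0.24 (limma adjusted p = 0.00833). How far reads of SPAG5 were counted for ALDOC was not tested.

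GPI, which isomerizes glucose 6-phosphate to fructose 6-phosphate, measured 18640.0, 17807 and 16605 normalized counts in si-CTRL 1 to 3 and 23641, 21697 and 23501 in si-NEK2 1 to 3. No si-NEK2 library reached down to the controls, and the rise was 1.3-fold (log2 fold change 0.38 ± 0.069 (SE), limma adjusted p = 0.00247). TPI1, which interconverts the triose phosphates, averaged 52652 ± 1109.5 in si-CTRL and 61637 ± 2415 in si-NEK2 (SD, n = 3). Its rise was smaller (log2 fold change 0.23 ± 0.061 (SE), limma adjusted p = 0.0152) and did not pass the test with equal totals (log2 fold change 0.10, limma adjusted p = 0.238).

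**Figure D2:**
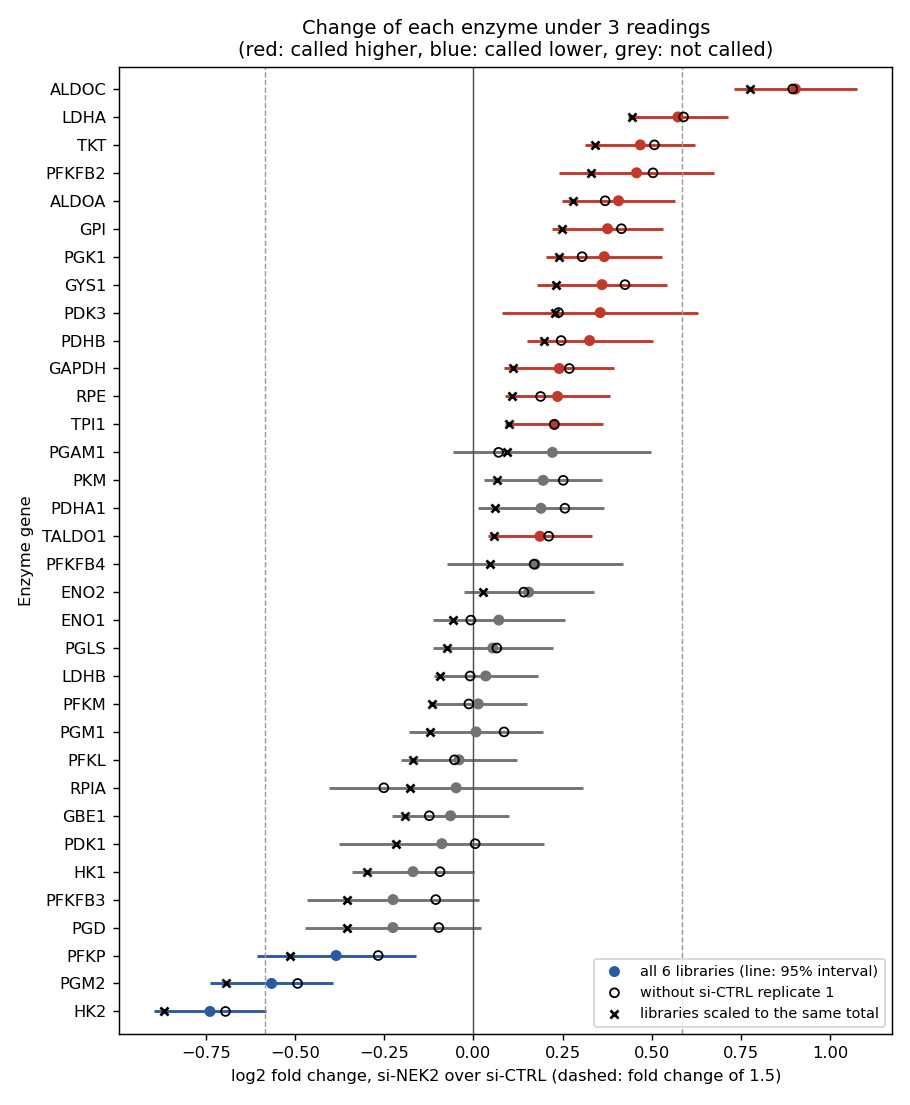
log2 fold change of si-NEK2 over si-CTRL for each enzyme (limma, filled circle with its 95% interval), without si-CTRL replicate 1 (open circle) and with libraries scaled to the same total (cross); dashed lines mark a fold change of 1.5. Equal totals shift all 34 enzymes to the left, and ALDOC (0.90) and HK2 (-0.74) mark the ends of the order.

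From triose phosphate to pyruvate, 2 of 6 enzymes rose, none fell and 4 did not pass the limma test; without si-CTRL 1, 3 were called higher and with equal totals 1. PGK1, which makes the first ATP of the payoff phase, measured 36479, 41135 and 41885 normalized counts in si-CTRL 1 to 3 and 49422, 51876 and 52595 in si-NEK2 1 to 3. It rose 1.29-fold (log2 fold change 0.37 ± 0.072 (SE), limma adjusted p = 0.00344), and the groups did not overlap. GAPDH, which reduces NAD+ and is often used as a reference gene, averaged 274244 ± 11199 in si-CTRL and 323963 ± 9701 in si-NEK2 (SD, n = 3). Its log2 fold change was 0.24 ± 0.068 (SE), with a limma adjusted p of 0.0193. With equal totals it was 0.11 (adjusted p = 0.223) and with quantile normalization the sign turned (-0.086). Its listed interval spans 206 kb and takes in other expressed rows, NCAPD2 the most abundant of them, at 0.102 times the GAPDH level.

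PKM, pyruvate kinase, which makes pyruvate and ATP, measured 314860.0, 282930.0 and 277276 normalized counts in si-CTRL 1 to 3 and 332033, 335676 and 332972 in si-NEK2 1 to 3. Every si-NEK2 library lay above every control, yet the difference did not pass the test (log2 fold change 0.20 ± 0.073 (SE), limma adjusted p = 0.0572). Without si-CTRL 1, the highest of its controls, it did (log2 fold change 0.25, limma adjusted p = 0.00159). The table counts whole genes, so the M1 and M2 isoforms of PKM are not separated. The mutase PGAM1 had a log2 fold change of 0.22 (95% interval -0.056 to 0.50), with si-CTRL 1 far below the other controls (49356 against 68006 and 67092 normalized counts). For enolase, which forms phosphoenolpyruvate, it was 0.071 (95% interval -0.11 to 0.26) for ENO1 and 0.16 (95% interval -0.027 to 0.34) for the neuronal form ENO2. Processed pseudogenes of GAPDH, PGK1, PGAM1, ENO1, TPI1, PKM, LDHA and ALDOA exist in the genome, and how reads matching several copies were assigned is not given in the sources used here.

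Per kilobase of transcript, GAPDH was the most abundant of the 34 in si-CTRL (146264 normalized counts per kb), followed by PKM (107357), TPI1 (42772), PGAM1 (33598), ENO1 (30152), LDHA (30038) and LDHB (27586). PGAM1, ENO1 and LDHA differed by less than the SD of PGAM1 (5745, n = 3), and LDHB differed from ENO1 by less than the SD of ENO1 (3135). In si-NEK2, LDHA (44727) was above PGAM1 (38825) and ENO1 (31570.2). The least abundant per kilobase were the regulators PFKFB4 (96.1), PFKFB2 (50.5) and PDK1 (38.3). Before division by length, PDK1 (544 normalized counts in si-CTRL) was above PFKFB2 (358) and PFKFB4 (345). Its transcript was taken as 14193 bases long.

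The PFKFB enzymes make and remove fructose 2,6-bisphosphate, the main activator of phosphofructokinase 1, and 1 of 3 rose; with equal totals 1 was also called lower. PFKFB2, the form named for heart, measured 381, 361 and 332 normalized counts in si-CTRL 1 to 3 and 482, 497 and 495 in si-NEK2 1 to 3. The groups were well apart (log2 fold change 0.46 ± 0.10 (SE), limma adjusted p = 0.00495). PFKFB3, the form with the highest kinase activity, measured 2128, 1626 and 1693 normalized counts in si-CTRL 1 to 3 and 1504, 1515 and 1610.0 in si-NEK2 1 to 3, lower in every si-NEK2 library but short of the threshold (log2 fold change -0.23 ± 0.11 (SE), limma adjusted p = 0.121); with equal totals it passed (log2 fold change -0.35, limma adjusted p = 0.0254), and without si-CTRL 1 the log2 fold change was -0.11. PFKFB4 had a log2 fold change of 0.17 (95% interval -0.074 to 0.42). PFKFB2 made up 9.19% ± 0.62 in si-CTRL and 13.3% ± 0.347 in si-NEK2 of the summed level per kilobase of the 3. Its interval shares 9132 bases with YOD1 on the opposite strand, 21.1 times as abundant, whose log2 fold change was 0.076 (limma adjusted p = 0.483).

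Of the lactate dehydrogenases, LDHA rose and LDHB did not pass the test. LDHA (chr11:18415936-18429765 in hg19) encodes the M subunit, which favours lactate formation, and measured 74176, 72149.5 and 71393 normalized counts in si-CTRL 1 to 3 and 104542, 106866 and 112772 in si-NEK2 1 to 3. Each group was tight and the gap between them wide, 1.49-fold (log2 fold change 0.57 ± 0.062 (SE), limma adjusted p = 0.000166). LDHB, the H subunit, measured 39888, 43699 and 43694 normalized counts in si-CTRL 1 to 3 and 42103, 44446 and 43748 in si-NEK2 1 to 3. Its groups overlapped (log2 fold change 0.035 ± 0.064 (SE), limma adjusted p = 0.694), and its 95% interval, -0.11 to 0.18, lies below that of LDHA, 0.43 to 0.71. LDHA made up 52.1% ± 1.79 in si-CTRL and 61.3% ± 0.826 in si-NEK2 of the pair per kilobase. The 2 genes together took 0.175% ± 0.0025 (SD, n = 3) of normalized counts in si-CTRL and 0.211% ± 0.0072 in si-NEK2.

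At the mitochondrial gate, 2 of 4 genes rose and 2 did not pass the test, but with equal totals 0 of 4 were called in either direction. PDHB, the beta subunit of pyruvate dehydrogenase, averaged 7346 ± 683 in si-CTRL and 9182 ± 143 in si-NEK2 (SD, n = 3), with no overlap (log2 fold change 0.33 ± 0.078 (SE), limma adjusted p = 0.00919); with equal totals it did not pass (log2 fold change 0.20, limma adjusted p = 0.0736). PDHA1, the alpha subunit, had a log2 fold change of 0.19 (95% interval 0.014 to 0.37), and without si-CTRL 1 it was called higher (0.26, limma adjusted p = 0.00296). The kinase PDK3, which inactivates the complex, measured 442, 561 and 568 normalized counts in si-CTRL 1 to 3 and 628, 729 and 647 in si-NEK2 1 to 3. It passed the test narrowly (log2 fold change 0.36 ± 0.12 (SE), limma adjusted p = 0.0415) and lost the call without si-CTRL 1 (adjusted p = 0.0536) and with equal totals (log2 fold change 0.23, adjusted p = 0.165). The groups overlapped for the kinase PDK1 (log2 fold change -0.088, 95% interval -0.38 to 0.20).

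In the pentose phosphate pathway 3 of 4 non-oxidative enzymes and 0 of 2 oxidative ones were called higher, beside 21.8% of all genes tested. With equal totals these counts were 1 and 0, with 1 oxidative enzyme called lower, and without si-CTRL 1 they were 3 and 0, with 1 non-oxidative enzyme called lower. A difference between the groups of enzymes was not tested. TKT, transketolase, which moves 2-carbon units between sugars and links the pathway back to glycolysis, measured 22591, 21656 and 20002 normalized counts in si-CTRL 1 to 3 and 29777, 28378 and 30661 in si-NEK2 1 to 3. It rose 1.38-fold with no overlap (log2 fold change 0.47 ± 0.068 (SE), limma adjusted p = 0.000756). TALDO1, transaldolase, its partner in this branch, averaged 15555 ± 516 in si-CTRL and 17712 ± 911 in si-NEK2 (SD, n = 3), and its smaller rise (log2 fold change 0.19 ± 0.064 (SE), limma adjusted p = 0.0436) kept its call in 4 of 17 alternatives. The small rises of RPE, TPI1, GAPDH and PDK3 kept theirs in 11, 10, 8 and 8 of 17. The listed TALDO1 interval overlaps that of PNPLA2 over 17597 bases on the same strand, at 0.138 times its level. The epimerase RPE rose as well (log2 fold change 0.24 ± 0.065 (SE), limma adjusted p = 0.0174; with equal totals 0.11, adjusted p = 0.219).

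The isomerase RPIA measured 889.9, 1356 and 1358 normalized counts in si-CTRL 1 to 3 and 1135, 1207 and 1081 in si-NEK2 1 to 3. Its si-CTRL 1 value lay below all others, and the log2 fold change of -0.048 (95% interval -0.40 to 0.31) became -0.25 without it, a call in the lower direction (limma adjusted p = 0.0147). Of the oxidative enzymes, the dehydrogenase PGD, which yields NADPH, measured 14283, 10890.3 and 10974 normalized counts in si-CTRL 1 to 3 and 10282, 9575 and 10845 in si-NEK2 1 to 3. All si-NEK2 values were below the controls, si-CTRL 1 was far above the rest, and the test was not passed (log2 fold change -0.23 ± 0.11 (SE), limma adjusted p = 0.127). With equal totals PGD was called lower (log2 fold change -0.35, limma adjusted p = 0.0279), and without si-CTRL 1 it was not (-0.10, adjusted p = 0.187). The lactonase PGLS had a log2 fold change of 0.054 (95% interval -0.11 to 0.22).

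On the way to glycogen, PGM2 fell, GYS1 rose and PGM1 and GBE1 did not pass the test. PGM2 (chr4:37828282-37864559 in hg19) acts on pentose phosphates as well as glucose phosphates. It measured 8385, 7121 and 7289 normalized counts in si-CTRL 1 to 3 and 5059, 5101 and 5198 in si-NEK2 1 to 3. No library crossed between the groups, and the si-NEK2 mean was 0.674 times the control mean (log2 fold change -0.57 ± 0.076 (SE), limma adjusted p = 0.000493). PGM1, the main interconverter of glucose 1-phosphate and glucose 6-phosphate, measured 3591, 3036 and 3063 normalized counts in si-CTRL 1 to 3 and 3116, 3377 and 3223 in si-NEK2 1 to 3, with full overlap (log2 fold change 0.0075 ± 0.083 (SE), limma adjusted p = 0.952). PGM2 therefore went from 64.1% ± 0.23 to 54.5% ± 0.99 of the pair's summed level per kilobase, a share of mRNA and not of enzyme activity. GYS1, the muscle-type glycogen synthase, measured 2783, 2462 and 2405 normalized counts in si-CTRL 1 to 3 and 3329.8, 3086 and 3396 in si-NEK2 1 to 3, higher in every si-NEK2 library (log2 fold change 0.36 ± 0.08 (SE), limma adjusted p = 0.00652). The branching enzyme GBE1 had a log2 fold change of -0.064 (95% interval -0.23 to 0.10).

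Ratios between paired enzymes inside a library do not depend on how the library is scaled, and 15 pairs were compared. The groups did not overlap in 10 of them (exact permutation test, two-sided, p = 0.1, the smallest possible; 0.15 after Benjamini-Hochberg adjustment over the 15). No ratio could therefore pass a threshold of 0.05, and the sizes are given as descriptions. Of all single genes tested, 55% had groups that did not overlap. The share among other gene pairs was not computed, so the count of 10 cannot be read as particular to these enzymes. The log2 ratio of LDHA to LDHB was 0.78 ± 0.104 in si-CTRL and 1.31 ± 0.0503 in si-NEK2 (SD, n = 3), a difference of 0.54. That of HK2 to HK1 was -2.63 ± 0.0696 in si-CTRL and -3.20 ± 0.0309 in si-NEK2, a difference of -0.57. PFKFB3 to PFKFB2 gave the widest difference, -0.68, from 2.33 ± 0.156 to 1.65 ± 0.0475.

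PGM1 to PGM2 differed by 0.57, with the tightest controls of the 15 (SD 0.0142). The other non-overlapping differences were -0.50 for ALDOA to ALDOC, 0.42 for GYS1 to GBE1, -0.40 for PFKP to PFKM, -0.40 for PFKFB3 to PFKFB4, -0.34 for PFKP to PFKL and 0.28 for TKT to TALDO1. The groups overlapped for ENO1 to ENO2, PDHA1 to PDHB, PDK1 to PDK3, PGD to PGLS and RPIA to RPE (exact permutation p from 0.2 to 0.6). In the last 4 of these, si-CTRL 1 lay farthest from the other controls, and in PFKP to PFKM its value of 0.27 compares with -0.16 and -0.17. Without it the differences were -0.25 for PFKP to PFKM and -0.21 for PFKP to PFKL.

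**Figure D3:**
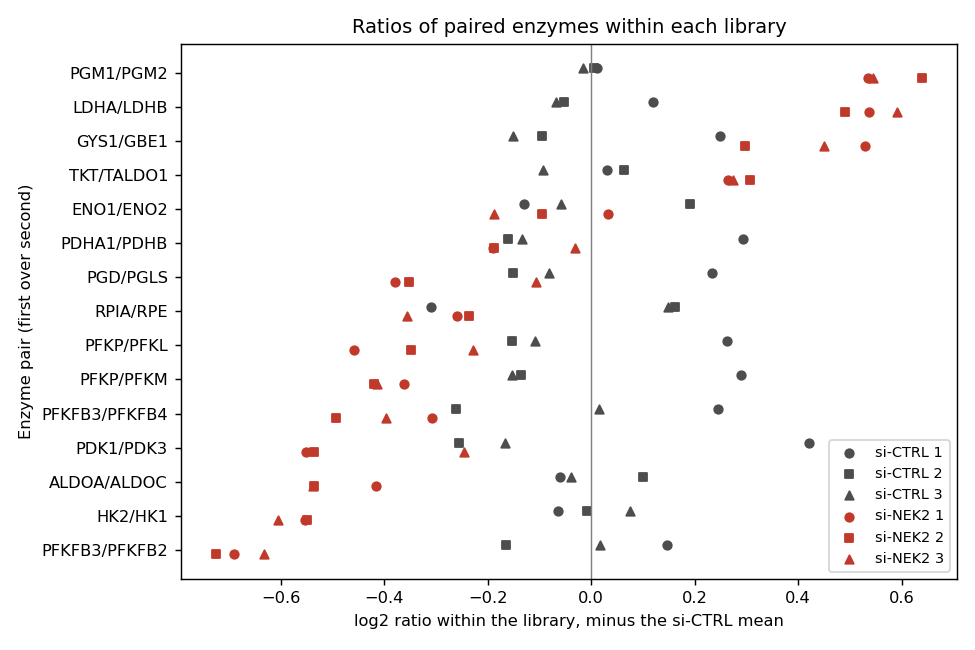
log2 ratio of 15 enzyme pairs within each library, shown as the difference from the si-CTRL mean; grey symbols are si-CTRL and red symbols si-NEK2. PGM1 to PGM2 (0.57) and LDHA to LDHB (0.54) moved most to the right and PFKFB3 to PFKFB2 (-0.68) most to the left, while 5 pairs overlap.

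The genes around these enzymes were counted as lists, to be read beside the 21.8% of all genes tested that were called higher and the 21.3% called lower. These shares were 26.8% and 23.2% without si-CTRL 1 and 13.8% and 28.1% with equal totals. Of 33 other enzymes of glycolysis and the pentose phosphate pathway, isoforms of other tissues among them, 19 passed the filter, 2 rose and 3 fell (3 and 4 without si-CTRL 1, 1 and 6 with equal totals). The row of RBKS, ribokinase, rose (log2 fold change 0.84 ± 0.18 (SE), limma adjusted p = 0.0059). It is shared with BRE-AS1, so the rise cannot be assigned to RBKS alone. HKDC1, a hexokinase domain protein, fell (log2 fold change -1.25 ± 0.12 (SE), limma adjusted p = 8.37e-05). The others were TIGAR, a fructose 2,6-bisphosphatase (0.22), upward and the deoxyribose-phosphate aldolase DERA (-0.41) and UEVLD (-0.57) downward; these, and the genes called others below, are named after their log2 fold changes were seen. Of 19 glucose and lactate transporters 14 were tested, 3 rose and 2 fell (3 and 4 without si-CTRL 1, 2 and 3 with equal totals). The glucose transporter SLC2A3 (GLUT3) fell to 0.566 times the control mean (log2 fold change -0.82 ± 0.085 (SE), limma adjusted p = 0.000144) and SLC2A12 rose (log2 fold change 0.67 ± 0.13 (SE), limma adjusted p = 0.00338). The others were SLC2A10 downward (-0.55) and, upward, SLC2A1 (GLUT1), the main glucose carrier of most cells (log2 fold change 0.29 ± 0.061 (SE), limma adjusted p = 0.00502), and the lactate carrier SLC16A1 (MCT1; log2 fold change 0.30 ± 0.062 (SE), limma adjusted p = 0.00444).

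Of 24 listed glycogen genes 21 were tested, 6 rose and 8 fell (4 and 9 with equal totals), beside the 21.8% and 21.3% of all genes, and the log2 fold changes reached from -2.12 to 1.23. UGP2, which makes UDP-glucose for glycogen and glycans, averaged 7137 ± 361 in si-CTRL and 1643 ± 106 in si-NEK2 (log2 fold change -2.12 ± 0.075 (SE), limma adjusted p = 1.62e-06). GYG1, glycogenin, the primer of glycogen, averaged 2365 ± 63 in si-CTRL and 862 ± 19.6 in si-NEK2 (log2 fold change -1.45 ± 0.07 (SE), limma adjusted p = 4.42e-06). PPP1R3F, a glycogen-targeting phosphatase subunit, fell as well (log2 fold change -1.62 ± 0.13 (SE), limma adjusted p = 4.59e-05), and PGM2L1, a relative of PGM2 that makes glucose 1,6-bisphosphate, rose 2.34-fold (log2 fold change 1.23 ± 0.082 (SE), limma adjusted p = 1.79e-05). For mitochondrial pyruvate use 12 genes were tested, 3 rose and 1 fell (5 and 1 without si-CTRL 1), none by more than 1.5-fold: pyruvate carboxylase PC (0.56), the pyruvate dehydrogenase subunit PDHX (0.51) and the phosphatase PDP2 (0.31) upward and its relative PDP1 (-0.41), which also reactivates the complex, downward. These were named after their values were seen. Of 7 gluconeogenic genes 2 passed the filter, 0 rose and 1 fell (1 and 1 without si-CTRL 1). The 1 that fell was PCK2, mitochondrial phosphoenolpyruvate carboxykinase (log2 fold change -0.61 ± 0.07 (SE), limma adjusted p = 0.000232).

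Of 20 regulators of glycolytic genes 18 were tested, 6 rose and 4 fell (7 and 4 without si-CTRL 1, 6 and 6 with equal totals), beside 21.8% and 21.3% of all genes. EGLN3, a HIF prolyl hydroxylase, rose 2.31-fold from a low level (68.5 ± 6.04 in si-CTRL and 158 ± 8.54 in si-NEK2; log2 fold change 1.20 ± 0.14 (SE), limma adjusted p = 0.000294). SREBF1, which drives lipid and NADPH genes, rose (log2 fold change 0.89 ± 0.091 (SE), limma adjusted p = 0.000125), as did ARNT, the partner of the HIF alpha subunits (log2 fold change 0.69 ± 0.11 (SE), limma adjusted p = 0.0012), whereas ARNT2 fell (log2 fold change -0.69 ± 0.084 (SE), limma adjusted p = 0.000305). KLF4 was also called lower (-0.53) and lost its call without si-CTRL 1 (limma adjusted p = 0.0566); it is named after its values were seen. MYC, which activates many glycolytic genes, fell to 0.547 times the control mean (log2 fold change -0.84 ± 0.15 (SE), limma adjusted p = 0.00237; without si-CTRL 1 the log2 fold change was -0.65). HIF1A, the oxygen-regulated factor, named after its values were seen, rose 1.52-fold at the mRNA level (log2 fold change 0.61 ± 0.082 (SE), limma adjusted p = 0.000522). The directions given in this and the 2 preceding paragraphs were the same with equal totals and without si-CTRL 1, although SLC2A1 and TIGAR did not pass the test with equal totals (log2 fold changes 0.16 and 0.088, limma adjusted p = 0.0607 and 0.346).

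**Figure D4:**
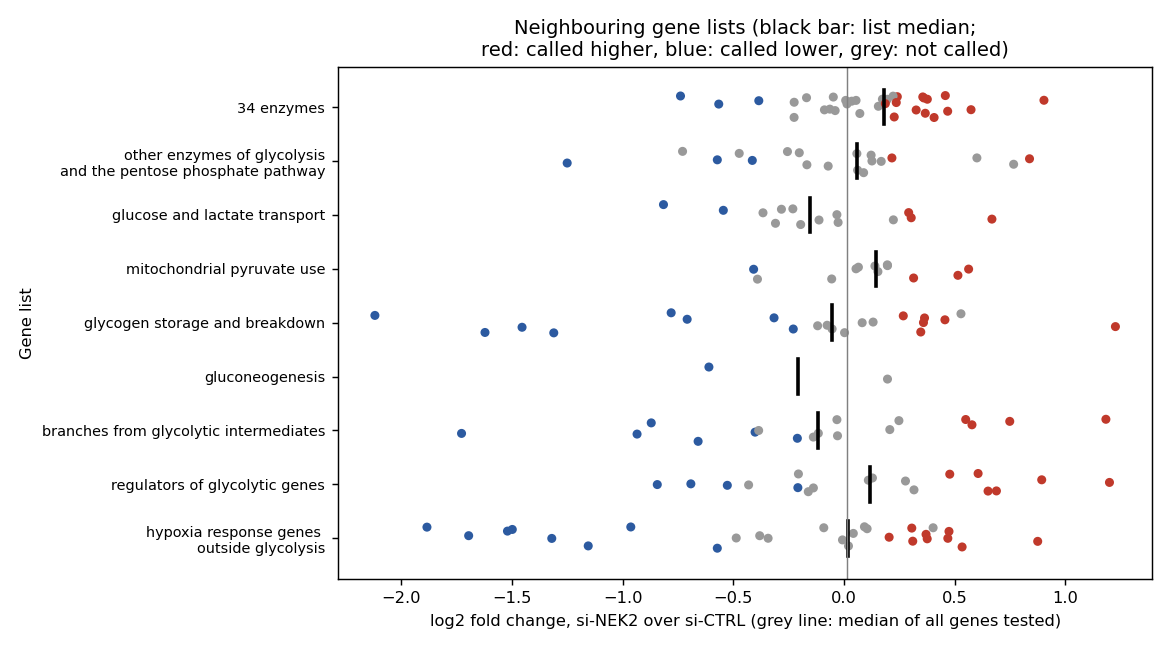
log2 fold change of si-NEK2 over si-CTRL for the tested genes of the 34 enzymes and of 8 neighbouring lists, with the median of each list as a black bar and that of all genes tested (0.012) as a grey line; vertical scatter is only for legibility. The 34 enzymes lie between -0.74 and 0.90, a narrower range than that of the glycogen list (-2.12 to 1.23).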

How the data were processed

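PolyA+ RNA libraries (TruSeq Stranded mRNA kit) of MDA-MB-231 cells were analysed in 2 groups of 3, set by the sample records, which do not say whether the replicates were separate cultures; p-values then cover only the spread between these samples. The authors deposited a signal per gene, that is its reads over the library's DESeq2 size factor (normalized counts), with FAST DB annotation and hg19 coordinates. STAR 2.4.0, FastQC, Picard and SAMtools are named in the submitters' processing notes; the counter and its strand setting are not given in the sources used here, so overlapping genes may share reads. All values were whole multiples of 1 read (100% within 0.1 read), which gave back the reads, so 1 read was worth 0.818 to 1.25 normalized counts. PFKM, ENO1 and PFKFB4 share their rows with a microRNA symbol. Among other genes named, so do SHMT1, SREBF1, ARNT2 and ERBB2, and RBKS shares its row with BRE-AS1.

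Genes with a mean of at least 10 were tested on log2(value + 1) with limma 3.58.1 (R 4.3.3, eBayes with trend) and Benjamini-Hochberg adjustment over all 18717. Fold changes of log2 values are on that scale. The fits were also run on simulated data. Those data held no outlying library and no group difference in normalized totals, so that run does not cover these features. edgeR 4.0.16 and DESeq2 1.42.0 on the recovered reads were among the 17 alternatives. Ratios used log2((first + 1)/(second + 1)) and exact permutation tests (scipy 1.17.1). Levels per kilobase used the longest principal transcript of GENCODE 29. The enzymes, lists and tests were chosen with earlier results of these data known. All 34 enzymes are named; of other lists, up to 3 largest increases and decreases that averaged 50 or more, changed 1.5-fold or more at an adjusted p up to 0.05 and did not overlap between groups; other names were chosen after their values were seen. Some genes of these lists are not reported here.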

Additional observations from a re-analysis of the deposited data

How the results depend on the processing

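Of the 17 enzymes called, 9 kept their call in all 17 alternatives, 8 lost it in at least 1, and 2 of these, TPI1 and GAPDH, turned in sign in 1. Enzymes called higher numbered 14, and 9 with upper quartile scaling, 8 with equal totals, 9 with quantile normalization and 9 to 15 when each library was left out, the lowest without si-NEK2 3. Enzymes called lower numbered 3, and 5, 6 and 5 with these scalings and 2 to 4 with each library left out. Past the study's thresholds upward was 1 enzyme, and 2 with quantile normalization, without si-CTRL 1 and without si-NEK2 1 (range 1 to 2). Downward it was 1, and 2 with upper quartile scaling, equal totals, quantile normalization, without si-CTRL 2 and without si-CTRL 3 (range 1 to 2). Signs turned, mostly in log2 fold changes near 0, as follows. With upper quartile scaling they became PFKM -0.053, LDHB -0.032, PGLS -0.012 and PGM1 -0.059. With equal totals they became PFKM -0.11, ENO1 -0.057, LDHB -0.093, PGLS -0.074 and PGM1 -0.12. With quantile normalization they became PFKM -0.091, TPI1 -0.012, GAPDH -0.086, PGAM1 -0.013, ENO1 -0.19, PKM -0.090, LDHB -0.13, PDK1 0.028, PGLS -0.0075 and PGM1 -0.064. When each library was left out the log2 fold changes ranged from -0.096 to 0.0067 for PFKL, -0.013 to 0.033 for PFKM, -0.0072 to 0.14 for ENO1, -0.0091 to 0.057 for LDHB, -0.17 to 0.0077 for PDK1, -0.00016 to 0.098 for PGLS, -0.25 to 0.053 for RPIA and -0.035 to 0.086 for PGM1. PGM1 was -0.0058 with edgeR and -0.0067 with DESeq2. The ratio differences of ENO1 to ENO2 (-0.15 to 0.011) and PDHA1 to PDHB (-0.22 to 0.011) turned too, the first without si-CTRL 2 and the second without si-CTRL 1. The sample labels do not say whether equal replicate numbers mark paired libraries. Correlations of deviations from the group means were -0.091, 0.047 and -0.15 for equal numbers and -0.12 to 0.18 for unequal ones. With 3 libraries per group these values cannot decide on pairing. With a replicate block 11 enzymes were called higher and 3 lower. edgeR called 12 higher and 3 lower, DESeq2 14 and 3. The cause of these changes was not tested. The least abundant enzyme, PFKFB4, averaged 367 normalized counts and had an SE of 0.11. SEs were widest for RPIA (0.16), PDK1 (0.13), PGAM1 (0.12) and PDK3 (0.12), against 0.062 for LDHA. Wide SEs were not confined to scarce enzymes, since PGAM1 averaged 66267 normalized counts. Smaller changes are harder to call where SEs are wide.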

Other observations

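Of 17 tested genes that take carbon out of glycolysis for other products, 4 rose and 6 fell, while 21.8% of all genes tested rose and 21.3% fell. Without si-CTRL 1, 5 rose and 7 fell, beside 26.8% and 23.2% of all genes tested. AKR1B1, aldose reductase of the polyol pathway, rose 2.26-fold (25225 ± 3725 in si-CTRL and 56895 ± 3192 in si-NEK2 normalized counts, SD, n = 3; log2 fold change 1.18 ± 0.11 (SE), limma adjusted p = 7.11e-05), and the serine hydroxymethyltransferase SHMT1 rose 1.68-fold (log2 fold change 0.75 ± 0.071 (SE), limma adjusted p = 8.78e-05). The others upward, named after their log2 fold changes were seen, were PSPH of serine synthesis (0.55) and GFPT1, the entry enzyme of the hexosamine pathway (0.58). GPD1L and GPD2, which handle glycerol 3-phosphate, both fell (log2 fold change -1.73 ± 0.12 (SE), limma adjusted p = 2.18e-05, and log2 fold change -0.93 ± 0.10 (SE), limma adjusted p = 0.000171). UAP1, which makes UDP-N-acetylglucosamine for glycans, fell from 22483 ± 212 to 12300.5 ± 519 normalized counts (log2 fold change -0.87 ± 0.059 (SE), limma adjusted p = 1.93e-05).

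Of 27 hypoxia response genes outside glycolysis, 9 were called higher and 8 lower, beside 21.8% and 21.3% of all genes tested. Their median log2 fold change was 0.02. With equal totals 5 were called higher and 11 lower, beside 13.8% and 28.1% of all genes tested. Without si-CTRL 1 the counts were 10 and 9, beside 26.8% and 23.2%. DDIT4, an inhibitor of mTORC1 signalling, rose (log2 fold change 0.87 ± 0.17 (SE), limma adjusted p = 0.00366). MXI1, a MYC antagonist, fell to 0.271 times the control mean (log2 fold change -1.88 ± 0.10 (SE), limma adjusted p = 7.14e-06) and BNIP3L, a mitophagy receptor, to 0.348 times (log2 fold change -1.52 ± 0.073 (SE), limma adjusted p = 4.42e-06). The directions of the genes named in both paragraphs were the same without si-CTRL 1 and with equal totals.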
